A study of Mus musculus with 14 samples.

Results

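The genes followed here are 7 cell surface receptors through which cells hold on to the matrix around them: the integrin subunits Itga3, Itga5, Itga6, Itgav, Itgb1 and Itgb5, and the hyaluronan receptor Cd44. The genes were chosen with earlier results of these data known. They were then taken as every set of probes on the array that its annotation assigns to 1 of these symbols, whatever its values. This gave 14 of 12422 probe sets and 7 of the 8251 genes with a symbol. RNA came from mouse corneal stroma and from stromal cells in primary culture, hybridised to Affymetrix MG_U74Av2 arrays, 14 in all. The tissue groups were dissected stroma of CD-1 mice at postnatal day 10 (P10, 2 arrays) and of adults aged 7 to 8 weeks (3 arrays). The 3 culture groups, with 3 arrays each, were stromal cells of adult CD-1 mice of the same age grown in DMEM. Keratocyte cultures had 1% platelet-poor horse serum, fibroblast cultures 10% fetal bovine serum, and myofibroblast cultures 10% fetal bovine serum with TGF-beta1 at 10 ng/ml. The cultures are named after the cell type each medium is meant to favour, and all 3 differ from the tissue by isolation and growth in culture. The labels do not say whether replicates came from separate animals or cultures, or whether animals were pooled, so p-values measure only the spread between these arrays, which may be technical.

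An integrin is a dimer of 1 alpha and 1 beta chain that spans the plasma membrane, binds a matrix protein outside and links it to actin, or to intermediate filaments in the case of alpha 6 beta 4, inside. The alpha chain largely sets the ligand: alpha 5 with beta 1 is the classical fibronectin receptor, alpha 3 and alpha 6 bind laminins, and alpha v pairs with several beta chains, among them beta 1 and beta 5, to bind vitronectin, fibronectin and other proteins. Cd44 is no integrin but a single chain that binds hyaluronan, the long sugar polymer of the pericellular matrix. In the cornea, the quiescent keratocyte sits between collagen lamellae, and the fibroblast and the contractile myofibroblast of a wound build strong adhesions to fibronectin. The epithelium above the stroma anchors to its basement membrane through alpha 6 beta 4 in hemidesmosomes.

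Of the 7 receptors, Itga5, Itgb1, Itgb5 and Cd44 were higher in keratocyte culture than in adult stroma, and Itga6 was lower. To show the start-site regions of the 4 genes that rose, the 250 bases before the annotated start are given here from RefSeq (mouse build GRCm38.p6), 5′ to 3′ on the gene's strand. Capitals mark every match, on either strand, to 4 motifs: the Sp1 box GGGCGG, the AP-1 site TGACTCA, the TEAD site GGAATG and the palindromic Smad site GTCTAGAC.
Itga5, chr15:103366792-103367041, minus strand: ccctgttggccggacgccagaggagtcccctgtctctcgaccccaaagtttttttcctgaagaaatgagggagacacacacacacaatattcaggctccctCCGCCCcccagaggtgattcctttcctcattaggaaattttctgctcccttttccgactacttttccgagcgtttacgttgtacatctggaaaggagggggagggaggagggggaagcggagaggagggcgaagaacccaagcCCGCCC
Itgb1, chr8:128685404-128685653, plus strand: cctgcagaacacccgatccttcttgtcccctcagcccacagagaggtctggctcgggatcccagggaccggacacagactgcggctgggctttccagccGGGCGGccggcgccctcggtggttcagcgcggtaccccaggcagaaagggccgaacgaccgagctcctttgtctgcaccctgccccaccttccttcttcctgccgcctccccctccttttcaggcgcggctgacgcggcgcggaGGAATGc
Itgb5, chr16:33829415-33829664, plus strand: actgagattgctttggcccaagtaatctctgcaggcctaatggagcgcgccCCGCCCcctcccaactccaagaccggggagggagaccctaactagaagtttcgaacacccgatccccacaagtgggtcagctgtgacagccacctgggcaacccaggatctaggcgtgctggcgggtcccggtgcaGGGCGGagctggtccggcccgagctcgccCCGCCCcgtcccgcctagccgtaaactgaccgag
Cd44, chr2:102901666-102901915, minus strand: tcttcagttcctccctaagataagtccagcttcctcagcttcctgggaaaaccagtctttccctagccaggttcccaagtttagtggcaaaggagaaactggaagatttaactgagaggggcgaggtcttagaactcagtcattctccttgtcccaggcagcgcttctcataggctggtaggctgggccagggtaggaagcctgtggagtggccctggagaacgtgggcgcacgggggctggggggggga
The Itga5 window held the Sp1 box from -149 to -144 and again from -6 to -1, counted back from the start. The Itgb1 window held it from -151 to -146, beside a TEAD site from -7 to -2. The Itgb5 window held 3 Sp1 boxes, from -199 to -194, from -63 to -58 and from -34 to -29. The Cd44 window held none of the 4 motifs, nor did that of Itgav. Itga3, which was not called higher on either probe set in the fit described below, held the Sp1 box in both of its windows, not printed here. In 1 window it lay from -246 to -241. In the other it lay from -178 to -173, from -144 to -139 and from -35 to -30. By the calls of that fit, the Sp1 box was therefore not particular to the genes that rose. Among all 32851 windows of this length, 32.7% held the Sp1 box, 12.6% the TEAD site, 4.46% the AP-1 site and 0.167% the Smad site, and the motifs do not overlap in the windows printed. These matches describe letters and were not tested as binding sites. Of the 7 members, 6 had a window in the table; Itga3 had a pair of starts, and Itga6 had no entry.

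Values below are signals on a linear scale, in arbitrary units, with a floor of 1, and the array has its own yardstick for background. In 19 control probe sets for bacterial and yeast transcripts, the median signal was 42.19 and the 95th percentile 137.7. Their target RNA was taken to be absent from the samples, which was not tested. A group mean below 137.7 is called below background here. Where 1 group of a pair lay there, the difference is given as "at least" a fold, and with no fold where both did. For this fold, each array of the dim group that lay below 137.7 was raised to it, and the means of the log2 signals were compared. Signals of different probe sets cannot be set against each other. A probe set was tested when its mean reached 50 in at least 1 group, which kept 12 of the 14. The other 2 were probe sets of Cd44 (103003_i_at and 103004_r_at), with group means of at most 6.31 and 24.5. Differences (log2) are those of log2(signal + 16) in 1 limma fit to all 14 arrays, which understates changes in low signals, and a call is an adjusted p below 0.05 over 10370 probe sets. For a gene with several probe sets, the one with the highest mean log2 signal represents it. Shares of all probe sets given as higher or lower below are shares called at an adjusted p below 0.05. The share of all probe sets at an unadjusted p below 0.05 was not counted, so counts at that threshold cannot be set against these shares.

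The arrays were of similar brightness, with medians from 102 to 136. Adult replicate 1 stood apart in RNA quality: the ratio of 3' to 5' Gapdh signal, a measure that goes up in degraded RNA, was 2.12 there and 0.756 to 1.04 on the other 13 arrays. Markers of corneal epithelium were high in the dissected stroma, where 10 of the 11 on the array were above background and their signals summed to 21750 to 23828 in adult and 22281 to 22598 in P10 samples. In the cultures the sums were 403 to 608, and 1 or 2 markers were above background. All 8 keratocyte markers were above background in both tissue groups and in keratocyte culture; the corneal proteoglycan gene Kera was below it in fibroblast culture, and Kera and Aldh3a1 in myofibroblast culture. All 4 smooth muscle markers of myofibroblasts were above background in each of the 3 cultures, keratocyte culture included, so these markers do not set myofibroblast culture apart. All 4 were above background in P10 stroma too, and 1 of them, Cnn1, in adult stroma. In bulk RNA, fewer cells of a type and less RNA per cell cannot be told apart.

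**Figure D1:**
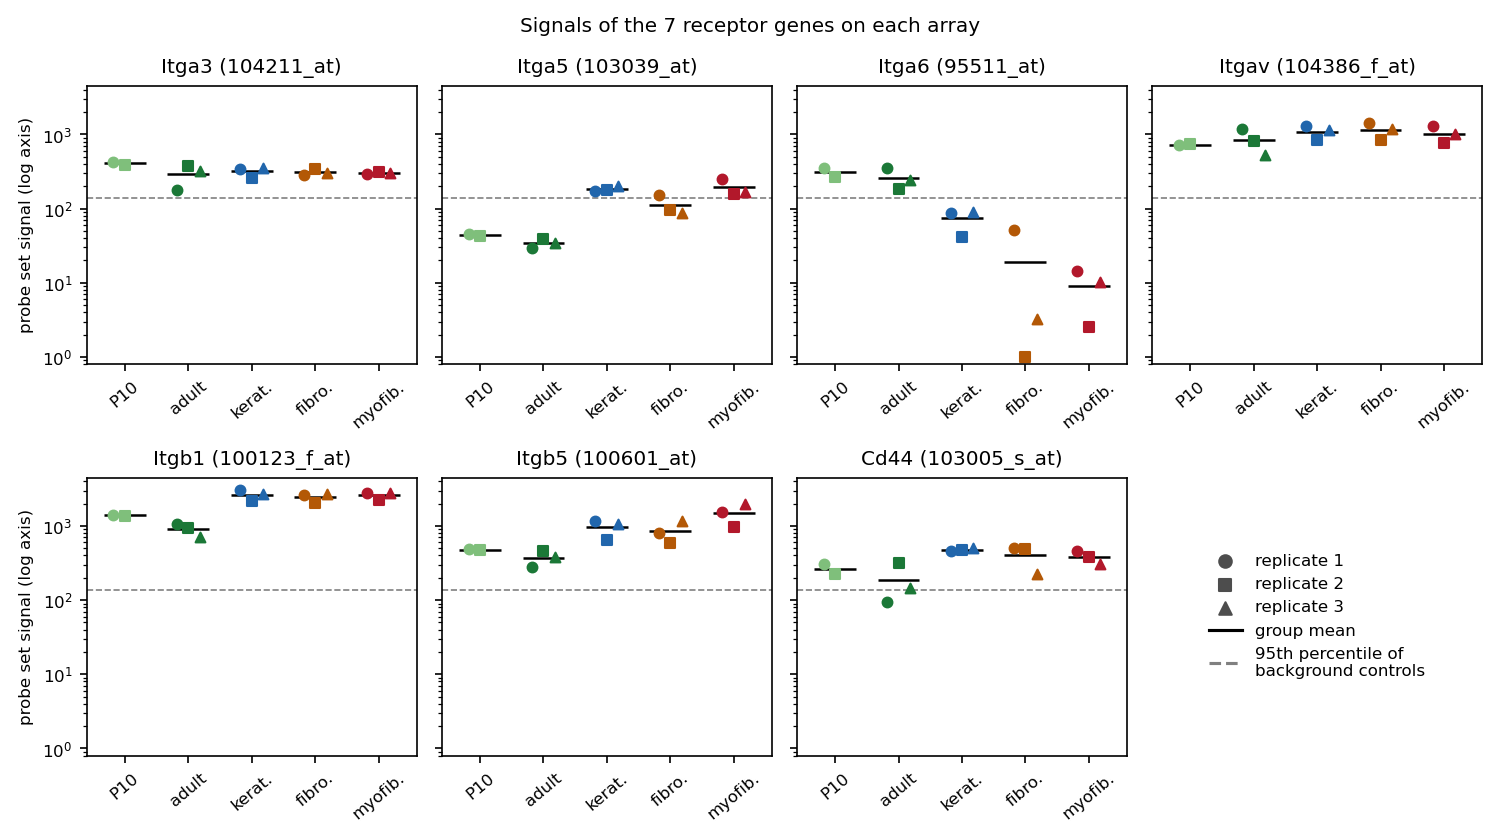
Signal (arbitrary units, log axis) of the probe set that represents each receptor, on every array of P10 and adult stroma and of keratocyte, fibroblast and myofibroblast culture. Symbols are replicates, black bars group means, and the dashed line is the background level of 137.7; Itgb1 lies between 2071 and 3023 on all culture arrays and between 717 and 1409 on all tissue arrays, while Itga6 falls below the line in the cultures.

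Itgb1, the beta chain shared by the largest group of integrins, gave signals of 1065, 937 and 717 on the adult arrays and of 1409 and 1377 at P10 (100123_f_at). Keratocyte cultures gave 3023, 2167 and 2721, fibroblast cultures 2604, 2071 and 2657, and myofibroblast cultures 2806, 2238 and 2804. Every culture array lay above every tissue array. Against adult stroma (906 ± 176, SD, n = 3), Itgb1 rose in keratocyte culture (2637 ± 434, SD, n = 3) by 1.53 ± 0.18 (log2, SE; adjusted p = 1.20e-05). The differences were 1.43 in fibroblast culture (adjusted p = 2.27e-05) and 1.52 in myofibroblast culture (adjusted p = 1.08e-05), with the adult arrays as the common control of all 3. A second probe set from the same sequence (100124_r_at) gave 238, 370 and 241 in adult stroma and 1399, 1207 and 1395 in keratocyte culture. It rose as well, by 2.20, 1.96 and 2.20 in the keratocyte, fibroblast and myofibroblast comparisons (adjusted p at most 2.20e-05).

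Itga5, the alpha chain of the fibronectin receptor, was within background in tissue. Its signals were 45.8 and 43.4 at P10 and 29.0, 39.6 and 34.4 in adult stroma (103039_at). They were 174, 177 and 204 in keratocyte culture, 154, 96.8 and 88.5 in fibroblast culture, and 252, 157 and 170 in myofibroblast culture. No culture array overlapped a tissue array. Itga5 was at least 1.34-fold higher in keratocyte culture than in adult stroma (adjusted p = 4.72e-06) and at least 1.37-fold higher in myofibroblast culture (adjusted p = 3.43e-06). Fibroblast culture differed from adult stroma too (adjusted p = 0.000206), but its mean of 113 ± 35.9 (SD, n = 3) is itself below background, so no fold is given.

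Itgb5 encodes the beta chain that joins alpha v in a vitronectin receptor. Its representative probe set (100601_at) read 490 and 467 at P10 and 283, 456 and 378 in adult stroma. Keratocyte cultures read 1160, 649 and 1053, fibroblast cultures 814, 593 and 1157, and myofibroblast cultures 1544, 956 and 1954. Every culture array was above every tissue array, and the highest 3 means were in the cultures. Against adult stroma (372 ± 86.6, SD, n = 3) the rise was 1.30 ± 0.30 (log2, SE; adjusted p = 0.00410) in keratocyte culture and 1.92 (adjusted p = 0.000193) in myofibroblast culture. In fibroblast culture it was 1.14 (adjusted p = 0.00987), a call that was lost without adult replicate 1 (adjusted p = 0.0517). With the Gapdh ratio as a covariate, the keratocyte and fibroblast calls were lost (adjusted p = 0.0641 and 0.156). The other Itgb5 probe set (162218_f_at) did not show this rise, and its group means ran from 386 to 532. In the unweighted fit it was called in none of the 7 comparisons, and its keratocyte minus adult difference was -0.19 (95% interval -0.63 to 0.25). With array quality weights, which count a discordant array less, it was called lower in keratocyte culture than in adult stroma (-0.42, adjusted p = 0.00502). That is opposite to the representative probe set.

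Cd44 (103005_s_at) gave 305 and 224 at P10, and in adult stroma 94.2, 317 and 144, a wide spread with replicate 1 the lowest. Signals were 457, 468 and 512 in keratocyte culture, 508, 488 and 225 in fibroblast culture, and 454, 383 and 305 in myofibroblast culture. All keratocyte arrays were above all adult arrays, whereas the fibroblast and the myofibroblast arrays overlapped the adult ones. Cd44 rose by 1.46 ± 0.36 (log2, SE; adjusted p = 0.00643) in keratocyte culture against adult stroma, where its mean was 185 ± 117 (SD, n = 3). The differences of 1.15 in fibroblast culture (adjusted p = 0.0256) and 1.12 in myofibroblast culture (adjusted p = 0.0274) passed the threshold but were less stable. The fibroblast call was lost without adult replicate 1 (adjusted p = 0.128) or 3 (0.0779), without fibroblast replicate 1 (0.101) or 2 (0.0822), and in a fit of these 2 groups alone (0.0756). The myofibroblast call was lost without adult replicate 1 (adjusted p = 0.136) or 3 (0.0808), or without myofibroblast replicate 1 (0.0931) or 2 (0.0601). With the Gapdh ratio as a covariate all 3 were lost (adjusted p = 0.120, 0.401 and 0.518), and how far the RNA quality of adult replicate 1 enters these values was not tested beyond this.

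Itga6, the laminin-binding partner of beta 4 in hemidesmosomes and of beta 1 elsewhere, ran the other way. It gave 358 and 266 at P10 and 349, 186 and 247 in adult stroma (95511_at). Keratocyte cultures gave 88.4, 40.9 and 91.5, fibroblast cultures 52.3, 1.00 and 3.26, and myofibroblast cultures 14.3, 2.53 and 10.1. All tissue arrays were above the background level and all culture arrays below it. Itga6 was at least 1.83-fold lower than in adult stroma (261 ± 82.2, SD, n = 3) in each culture, with adjusted p = 0.0111 for keratocyte, 5.91e-05 for fibroblast and 3.01e-05 for myofibroblast culture. The bound is the same since all arrays of the 3 cultures were raised to 137.7. The keratocyte call was lost without adult replicate 1 (adjusted p = 0.0531), without keratocyte replicate 2 (0.05004), with 1 added in place of 16 (0.147) and with the Gapdh covariate (0.135). Epithelial markers moved with Itga6: Itgb4, the beta chain of the hemidesmosome receptor and 1 of those markers, read 1122 to 1681 in adult stroma and 1 on every culture array, at least 10.2-fold lower (adjusted p = 2.82e-12). The part of epithelial RNA in the Itga6 signal of the dissected stroma was not tested.

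Itga3, the other laminin-binding alpha chain, gave a different answer from each of its probe sets. The representative one (104211_at) read 424 and 391 at P10, 180, 375 and 319 in adult stroma, 339, 259 and 353 in keratocyte culture, 283, 342 and 302 in fibroblast culture and 293, 309 and 306 in myofibroblast culture. It was called in no comparison of the unweighted fit, with a keratocyte minus adult difference of 0.16 (95% interval -0.31 to 0.63). With array quality weights this probe set was called higher than in adult stroma in all 3 cultures. The differences were 0.77 in keratocyte (adjusted p = 0.000154), 0.60 in fibroblast (0.0257) and 0.59 in myofibroblast culture (0.0101). In the keratocyte comparison the weights raised the calls over all probe sets from 3221 to 6366 of 10370. The other (104210_at) read 398 and 351 at P10 and 309, 413 and 255 in adult stroma, then 123, 114 and 150 in keratocyte, 103, 116 and 129 in fibroblast and 62.2, 59.2 and 111 in myofibroblast culture. On this probe set every culture array was below every tissue array, and Itga3 was lower than in adult stroma by at least 2.25-fold (adjusted p = 0.000681), 2.32-fold (0.000286) and 2.32-fold (1.20e-05), in the same order. The probe sets were designed on different sequences, and which of them follows the gene was not tested.

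Itgav, the alpha chain of the vitronectin receptors, was measured by 3 probe sets. The brightest (104386_f_at) read 712 and 736 at P10 and 1169, 828 and 530 in adult stroma. It read 1287, 843 and 1135 in keratocyte, 1433, 846 and 1191 in fibroblast and 1288, 766 and 1017 in myofibroblast culture. The groups overlapped throughout, except that the P10 arrays lay below those of each culture, and nothing was called; the keratocyte minus adult difference was 0.41 (95% interval -0.19 to 1.02). A second from the same sequence (104385_i_at) read 1090, 508 and 535 in adult stroma and 1458, 833 and 1150 in keratocyte culture, a difference of 0.73 (adjusted p = 0.114) that was called without adult replicate 1 (1.08, adjusted p = 0.0270) and with the Gapdh covariate (1.31, adjusted p = 0.0157). The third (98366_at) was below background in tissue, at 48.9 and 58.7 at P10 and 8.91, 9.47 and 22.2 in adult stroma. It rose to 202, 172 and 258 in keratocyte, 272, 116 and 298 in fibroblast and 307, 96.5 and 247 in myofibroblast culture. On that probe set Itgav was at least 1.51-fold (adjusted p = 3.23e-05), 1.53-fold (2.89e-05) and 1.41-fold (3.80e-05) higher than in adult stroma.

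**Figure D2:**
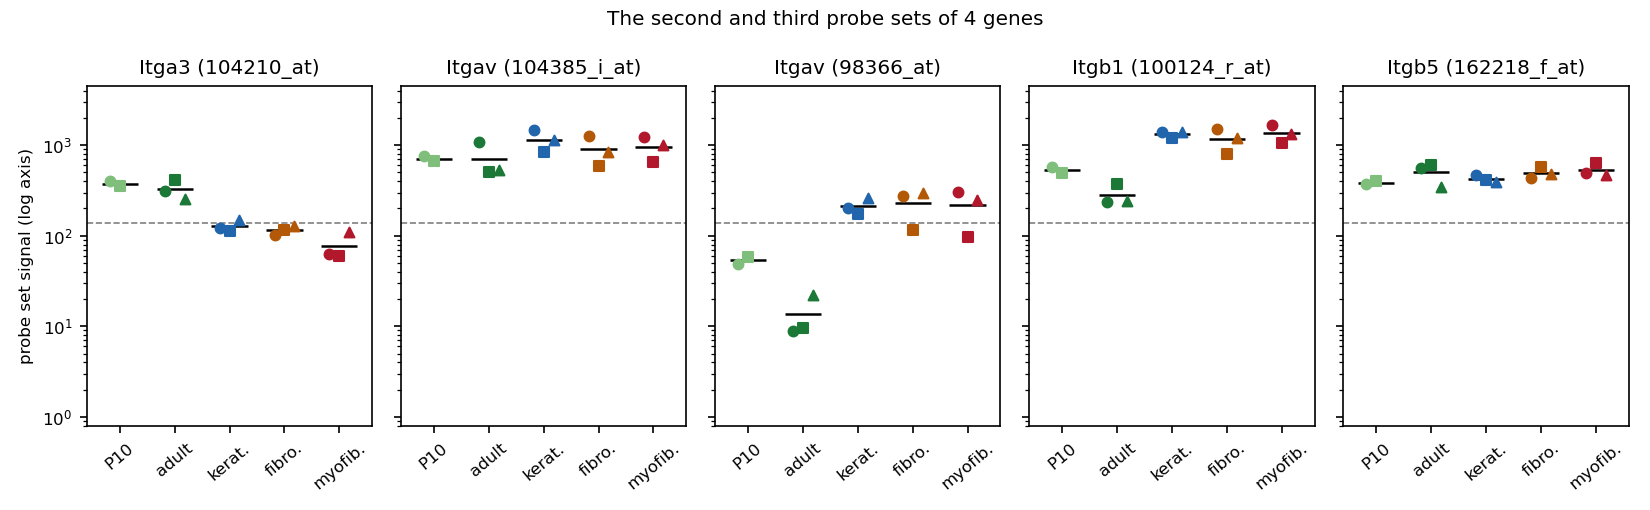
Signal (arbitrary units, log axis) of the 5 further tested probe sets of Itga3, Itgav, Itgb1 and Itgb5, drawn as for the representative ones, with the background level of 137.7 dashed. The Itga3 set falls and the Itgav set 98366_at rises in all 3 cultures, unlike the representative sets of the same genes, and the Itgb5 set keeps group means from 386 to 532.

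Counting 1 probe set per gene, 4 of the 7 receptors were higher and 1 was lower in keratocyte culture than in adult stroma. Of all probe sets tested in that comparison, 21.8% were higher and 9.25% lower. The same counts, 4 higher and 1 lower, were found in fibroblast culture (18.4% and 12.3% of all probe sets) and in myofibroblast culture (17.5% and 15.5%), and the called genes were again Itga5, Itgb1, Itgb5, Cd44 and Itga6. These 3 comparisons share their adult arrays and are not independent. The median difference over the 7 genes was 1.30, 1.14 and 1.12 (log2) in keratocyte, fibroblast and myofibroblast culture, against 0.12, 0.04 and -0.01 over all probe sets. Markers of leukocytes, which also carry Cd44, were higher in keratocyte culture: 10 of 12 were above background there with summed signals of 3256 to 4107, against 3 of 12 and 963 to 1304 in adult stroma. In fibroblast and myofibroblast culture 7 and 4 were above background, with sums of 1552 to 2987 and 1384 to 2155, and their part in the Cd44 values was not tested. Melanocyte markers were higher in keratocyte culture too, with 4 of 4 called and sums of 1862 to 2221 against 612 to 750 in adult stroma. Lens markers had sums of 4640 to 7397 in adult stroma and 511 to 550 in keratocyte culture (3 of 6 called lower), and retina markers 617 to 2978 and 68.1 to 82.9 (3 of 3 called lower). In fibroblast and myofibroblast culture the sums were 375 to 605 for melanocyte, 458 to 570 for lens and 55.1 to 94.1 for retina markers, and the part of these cells in the receptor signals was not tested.

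**Figure D3:**
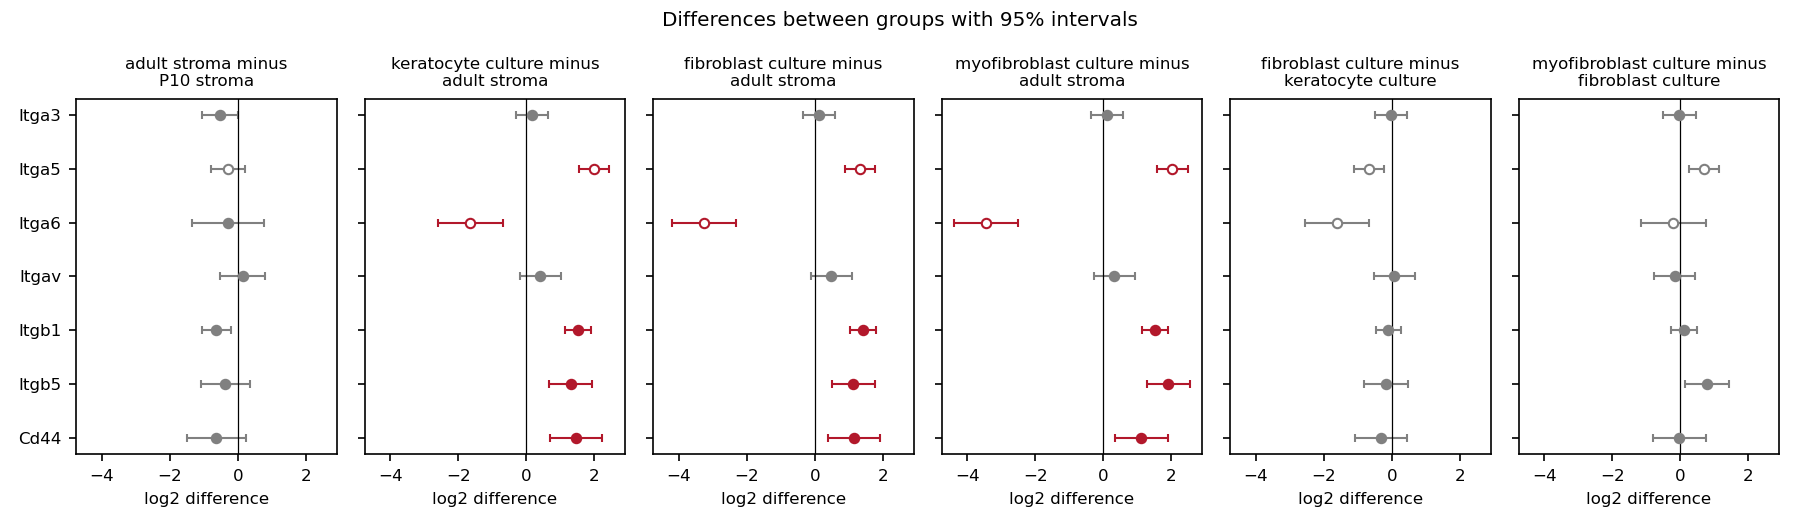
Difference of log2(signal + 16) for each receptor in 6 comparisons, with 95% intervals from the limma fit; red marks an adjusted p below 0.05, and open circles a comparison in which at least 1 group mean is below 137.7, where the size has no fixed meaning. The 5 called genes are the same against adult stroma in each culture, and no point is red between adult and P10 stroma, fibroblast and keratocyte culture, or myofibroblast and fibroblast culture.

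Between P10 and adult stroma none of the 7 receptors was called by limma. Of all probe sets, 0.453% were called higher and 3.26% lower in the adult. On the representative probe sets 1 receptor, Itgb1, had an unadjusted p below 0.05. Itgb1 came nearest: both P10 arrays (1393 ± 23.0, SD, n = 2) were above all adult arrays, with a difference of -0.63 (95% interval -1.05 to -0.21; adjusted p = 0.101). Its second probe set differed by -0.90 (adjusted p = 0.0862). After quantile normalization Itgb1 was called lower in the adult (-0.60, adjusted p = 0.0374). The arrays were also apart, lower in the adult, for Itga3, Itga5 and Itgb5, with adjusted p from 0.347 to 0.695. Itga5 was below background in both groups, and the other Itgb5 probe set (162218_f_at) differed the other way, by 0.33. The share of all probe sets with arrays apart was not counted, here or in other comparisons, so these separations are only described. The median over the 7 genes was -0.37 against -0.12 over all probe sets. With array quality weights, which count a discordant array less, 5 receptors were called, with Itga3 (-1.01), Itgb1 (-0.42), Itgb5 (-0.66) and Cd44 (-1.21) lower and Itgav (0.59) higher in the adult. These weights raised the calls over all probe sets as well, from 385 to 2335 of 10370. Other probe sets of the same genes were called the opposite way with them, Itgb5 (162218_f_at) higher by 0.48 (adjusted p = 0.0254) and Itgav (98366_at), below background in both groups, lower (adjusted p = 0.00104), so the weighted fit settles no direction for these 2 genes. The intervals in the unweighted fit were wide for Itga6 (-1.33 to 0.78) and Cd44 (-1.48 to 0.24).

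Among the cultures few differences passed the test. None was called by limma between fibroblast and keratocyte culture, where 0.193% of all probe sets were called higher and 1.18% lower with fetal bovine serum. Of the receptors 2, Itga5 and Itga6, had an unadjusted p below 0.05. The 95% interval of the fibroblast minus keratocyte difference was -0.48 to 0.27 for Itgb1, -0.81 to 0.48 for Itgb5 and -1.08 to 0.46 for Cd44. It was -0.50 to 0.45 for Itga3 and -0.53 to 0.68 for Itgav. Itga5 was the 1 receptor whose arrays did not overlap, at 185 ± 16.4 in keratocyte and 113 ± 35.9 in fibroblast culture (SD, n = 3 each; adjusted p = 0.202). Its 95% interval, -1.11 to -0.22, left out 0 before adjustment, as did that of Itga6, -2.56 to -0.67, where the size has no fixed meaning below background. Itga6 was lower on 2 of the 3 fibroblast arrays than on any keratocyte array, all below background (adjusted p = 0.114), and was called lower without fibroblast replicate 1 (adjusted p = 0.00586).

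TGF-beta1 in 10% fetal bovine serum was examined by myofibroblast against fibroblast culture. None of the 7 receptors was called by limma when the arrays were treated as independent. Of all probe sets, 0.289% were called higher and 0.781% lower. At an unadjusted p below 0.05, 2 receptors passed, Itga5 and Itgb5, and the share of all probe sets at that threshold was not counted. Same-numbered fibroblast and myofibroblast arrays deviated together, with correlations of their deviations from 0.534 to 0.683, and with the number as a block 0.752% of probe sets were higher and 1.69% lower. That paired fit, with the block limited to these arrays, was chosen after seeing the data. In it Itga5 was called higher with TGF-beta1: it rose from 154 to 252, from 96.8 to 157 and from 88.5 to 170, in 3 of 3 pairs (adjusted p = 0.0204, against 0.193 unpaired). The planned block by replicate number over all arrays did not call Itga5 in this comparison. The difference is given as at least 1.32-fold, since the mean of fibroblast culture lay below background. The call rested on all 3 pairs, with adjusted p of 0.142, 0.104 and 0.222 without pair 1, 2 and 3. Itgb5 was higher in 3 of 3 pairs as well, by 0.78 (95% interval 0.32 to 1.24), but was not called (adjusted p = 0.0967). The second Itgb5 probe set (162218_f_at) was higher in 2 of 3 pairs, by 0.11 (-0.30 to 0.51). For Itgb1 the paired difference was 0.10 (95% interval -0.24 to 0.44) and for Cd44 -0.03 (-0.70 to 0.65). The representative Itgav probe set (104386_f_at) was lower in 3 of 3 pairs, with a difference of -0.17 (-0.68 to 0.34). Its other probe sets did not repeat this: 104385_i_at was higher in 2 of 3 pairs (0.13) and 98366_at in 1 of 3 (-0.11). The representative Itga3 probe set was higher in 2 of 3 pairs (-0.03, interval -0.51 to 0.46), as was Itga6, which stayed within background in both groups. The other Itga3 probe set (104210_at), below background in both groups, was lower in 3 of 3 pairs and was not called (adjusted p = 0.237).

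**Figure D4:**
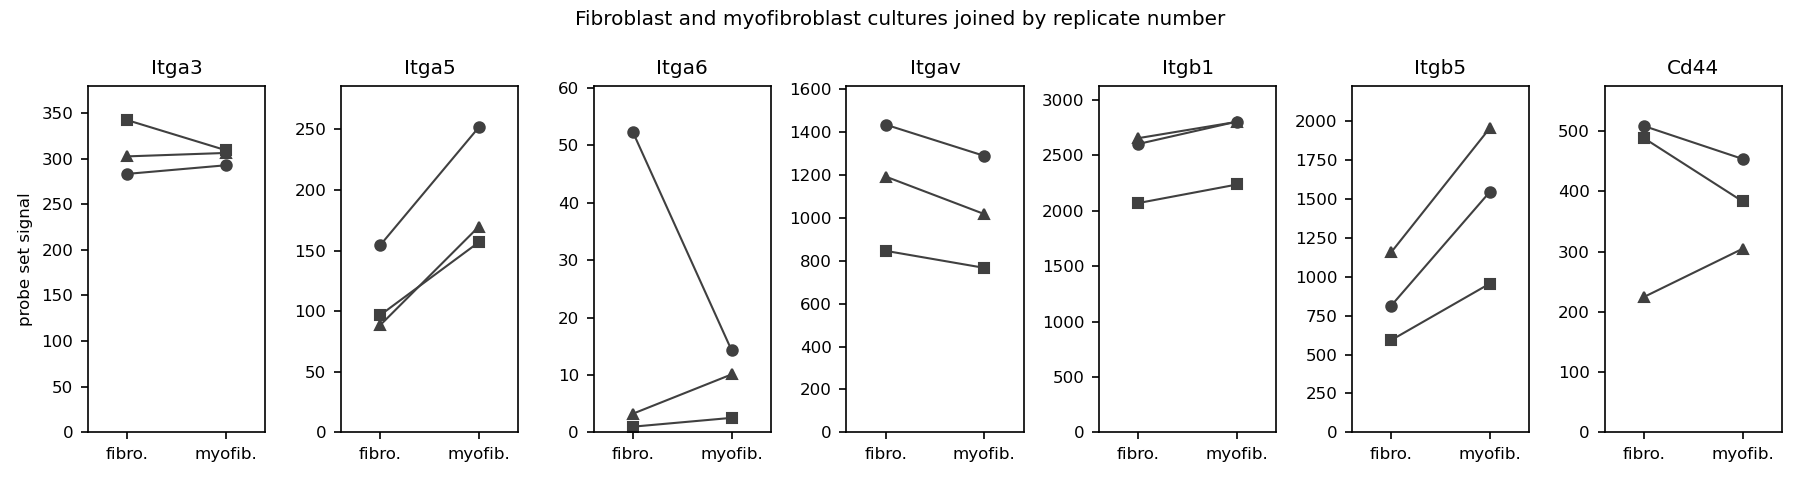
Signal (arbitrary units, linear axes from 0, each gene on its own scale) of the 7 receptors in fibroblast and myofibroblast culture, with lines joining arrays of the same replicate number. On the representative probe sets drawn, all 3 lines rise for Itga5, Itgb5 and, slightly, Itgb1, and all 3 fall slightly for Itgav.

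Myofibroblast against keratocyte culture, which is the sum of the previous 2 differences, called 1 receptor. Itga6 was lower (adjusted p = 0.0247), with 1.1% of all probe sets higher and 4.88% lower, but both group means were below background, at 8.99 ± 5.98 and 73.6 ± 28.3 (SD, n = 3 each). The call was lost with 1 added in place of 16 (adjusted p = 0.0720). It was also lost without keratocyte replicate 1 (adjusted p = 0.116) or 3 (0.121) and without myofibroblast replicate 2 (0.0991) or 3 (0.0664). The Cd44 arrays did not overlap, with 380 ± 74.6 in myofibroblast and 479 ± 29.1 in keratocyte culture, a difference of -0.34 (95% interval -1.11 to 0.43; adjusted p = 0.657). Itgb5 differed by 0.61 (-0.03 to 1.26; adjusted p = 0.279), with its highest mean, 1485 ± 502, in myofibroblast culture.

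Ordered by level, Itgb1, Itgb5 and Cd44 were high in the 3 cultures, lower at P10 and lowest in adult stroma. Itga5 had the same 2 lowest groups. Within the cultures, neighbours in this order were not told apart in the unpaired fit, and neither were P10 and adult stroma; for Cd44 even the step from myofibroblast culture to P10 stroma, at 380 and 265, had a pair of arrays that touched (305 on 1 array of each group). Itga6 was high in tissue and low in the cultures, from 312 at P10 and 261 in adult stroma down to 73.6, 18.9 and 8.99 in keratocyte, fibroblast and myofibroblast culture, and only its step from adult stroma to keratocyte culture passed the test. Itgav had no step between neighbours that passed it, and neither had Itga3 in the 3 steps tested without array weights. The Itga3 step from P10 stroma (408) to keratocyte culture (317), where the arrays did not overlap, was not tested. Nor was any other step between P10 stroma and a culture. Over the 14 arrays the log2 signals of Itga5 and Itgb1 correlated at r = 0.901, Itgb1 and Itgb5 at 0.870, Itga5 and Itgb5 at 0.855, and Itga6 with Itgb1 at -0.714. These describe 14 arrays that fall mostly into tissue and culture, and points of a group share that origin.

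The genes most like each receptor over the 14 arrays, by Pearson's r of log2(signal + 16), were found among 7437 genes. For Itgb1 they were Mdfic (0.987), Cd63 (0.982), which encodes a tetraspanin, and Calu (0.982), which encodes a calcium-binding protein of the secretory pathway. For Itga5 they were Acot7 (0.982), Fez2 (0.980) and Pdlim7 (0.971), which encodes an actin-associated PDZ-LIM protein. For Itga6 they were Phgdh (0.975), an enzyme of serine synthesis, Serbp1 (0.966) and Tpd52 (0.965). Nucb2 (0.959), Tbpl1 (0.954) and Gm2022 (0.951) came nearest to Itgb5, Wdr74 (0.966), Prkd1 (0.941) and Nap1l1 (0.940) to Cd44, and Ndufc1 (0.959), Zcrb1 (0.938) and Uba3 (0.921) to Itgav. The nearest to Itga3 were less close, at 0.868 for Zfp444, 0.862 for Atoh7 and 0.837 for 6330403K07Rik.

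None of the other integrin subunits tested was called higher in a culture than in adult stroma. Of 20 on the list, 12 were on the array and 9 were tested; in keratocyte culture against adult stroma none was higher (1 at an unadjusted p below 0.05) and 1 was lower, the beta 4 chain Itgb4 described above, while 21.8% of all probe sets were higher. The median over these 9 was 0.08, against 0.12 over all probe sets. Itga2 and Itgax were below background in every group. Because the receptors and this list were chosen with earlier results of these data known, the contrast between them is not a test. None of the 9 was called by limma between adult and P10 stroma or between myofibroblast and fibroblast culture, with 0 at an unadjusted p below 0.05 in both. Of all probe sets, 0.453% were higher and 3.26% lower in the first comparison, and 0.289% and 0.781% in the second.

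Proteins that join integrins to actin moved in both directions. Of 28 tested adhesion adaptors, 12 were higher and 4 lower in keratocyte culture than in adult stroma, where 21.8% of all probe sets were higher and 9.25% lower. Their median was 0.27, against 0.12 over all probe sets, a background that holds for the next 3 lists too. The actin cross-linker Actn1 went from 96.7 ± 4.95 to 2663 ± 221 (at least 19.3-fold), and Fermt2, the kindlin that binds beta chain tails, from 57.9 ± 6.71 to 1039 ± 246 (at least 7.39-fold). Cav1, the caveolar coat protein, rose by 3.09 (167 ± 35.3 to 1530 ± 199) and the integrin-linked kinase Ilk by 2.10 (172 ± 37.8 to 787 ± 129; SD, n = 3 each, adjusted p at most 6.04e-06 for the 4 genes). Between adult and P10 stroma 3 adaptors were lower and 1 higher in the adult: Fermt2 (187 at P10, at least 1.32-fold lower), Actn1 (240, at least 1.74-fold lower) and Enah (150, at least 1.09-fold lower) fell, and Fermt3, the kindlin of blood cells, rose from 113 to 309 (at least 2.22-fold). Their adjusted p ran from 0.000628 to 0.0332. Of all probe sets, 3.26% were lower and 0.453% higher in the adult than at P10. None of the 28 was called with TGF-beta1 in the unpaired limma fit, with 1 higher and 1 lower at an unadjusted p below 0.05. In that fit 0.289% of all probe sets were higher and 0.781% lower.

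Most matrix proteins on the list of integrin ligands were higher in culture. Of 30 tested ligand genes, 21 were higher and 4 lower in keratocyte culture than in adult stroma (21.8% and 9.25% of all probe sets), with a median of 1.52. Ccn2, a secreted matricellular protein, was at least 27.1-fold higher (56.2 ± 46.5 to 3730 ± 173), Tnc, tenascin-C, at least 12.7-fold (110 ± 16.6 to 1754 ± 89.5) and Ccn1 at least 8.65-fold (92.2 ± 6.86 to 1201 ± 192). Lama3, the alpha chain of the epithelial laminin of hemidesmosomes, was at least 3.13-fold lower (447 ± 152 to 18.1 ± 2.35). Adjusted p was at most 2.07e-07 for these 4. Between adult and P10 stroma 13 of the 30 were lower in the adult and none higher (0 at an unadjusted p below 0.05), where 3.26% of all probe sets were lower and 0.453% higher. The median over the 30 was -1.05, against -0.12 over all probe sets. Among the lower genes were Col3a1 (1205 to 98.2, at least 8.70-fold), Col5a1 (log2 difference -2.32), Col4a1 (-2.15) and Thbs2 (477 to 98.1, at least 3.44-fold), with adjusted p at most 0.00250. With TGF-beta1, 1 of the 30 was called: Thbs2, thrombospondin 2, was lower, at 1006 ± 369 against 2660 ± 920 (-1.39, adjusted p = 0.0402). In that unpaired fit 0.289% of all probe sets were called higher and 0.781% lower. At an unadjusted p below 0.05 in the limma fit, 6 of the 30 were higher and 3 lower.

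Among 22 tested genes of hyaluronan and of partners of Cd44, 9 were higher and 3 lower in keratocyte culture than in adult stroma (21.8% and 9.25% of all probe sets), with a median of 0.48. Msn, moesin, which ties the Cd44 tail to actin, was at least 10.9-fold higher (106 ± 13.5 to 1528 ± 312), and Ptx3, a pentraxin of the hyaluronan matrix, at least 6.97-fold (39.4 ± 25.7 to 966 ± 126). Vcan (1.00 to 126) and Srgn (19.5 to 131), which encode chondroitin sulfate proteoglycans, were called higher with both means below background. None of the 22 was called by limma between adult and P10 stroma, with 4 lower and 0 higher at an unadjusted p below 0.05. Of all probe sets, 3.26% were called lower and 0.453% higher there. With TGF-beta1 2 were lower: Ptx3 at 89.4 ± 36.6 against 931 ± 209, at least 6.63-fold (adjusted p = 0.000251), and Srgn at 15.4 against 57.8, both below background (adjusted p = 0.0468). In that unpaired fit 0.289% of all probe sets were higher and 0.781% lower.

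Of 23 tested membrane partners of integrins, 9 were higher and 6 lower in keratocyte culture than in adult stroma (21.8% and 9.25% of all probe sets), with a median of 0.54. The tetraspanin Cd63 rose by 3.29 (266 ± 55.2 to 2716 ± 232), and Vcam1, a ligand of leukocyte integrins, was at least 6.71-fold higher (74.2 ± 38.4 to 967 ± 343). The epithelial syndecan Sdc1 was at least 7.86-fold lower (1112 ± 309 to 30.1 ± 9.81), and Cdcp1 at least 3.60-fold lower (503 ± 101 to 22.6 ± 5.48). Between adult and P10 stroma 2 were lower in the adult: the collagen receptor Ddr2 (836 ± 60.2 to 176 ± 91.9, log2 difference -2.27, adjusted p = 0.00274) and Cd63 (720 ± 23.0 to 266 ± 55.2, log2 difference -1.40, adjusted p = 0.00109). Of all probe sets, 3.26% were lower and 0.453% higher there. None of the 23 was called with TGF-beta1 in the unpaired limma fit, with 1 higher and 3 lower at an unadjusted p below 0.05. In that fit 0.289% of all probe sets were called higher and 0.781% lower.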

How the data were processed

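Total RNA was hybridised to Affymetrix MG_U74Av2 arrays. Per the labels, the authors obtained signals (unit: intensity, linear) with Affymetrix Microarray Suite 5.0, scaled to a target of 150; the deposited table has a floor at 1 and no detection calls. Groups and replicate numbers came from the sample titles. After 66 control probe sets were removed from 12488, those with a mean of 50 or more in at least 1 group were kept (10370). limma 3.58.1 (R 4.3.3) was run on log2(signal + 16), with 1 mean per group, 9 residual degrees of freedom, a trended empirical Bayes variance, two-sided tests and Benjamini-Hochberg adjustment per comparison. The fit was tested on simulated data. Arrays carry no counts, so their number limits the precision, beside signals near background. Replicate numbers are not stated to pair arrays; they were taken to do so where all 3 correlations of deviations from group means were over 0.1, which held for fibroblast with myofibroblast culture only (0.623, 0.683 and 0.534). Named members are all 7 with every tested probe set; from 5 related lists, up to 4 called genes with the largest differences and arrays apart were named for keratocyte minus adult, adult minus P10 and myofibroblast minus fibroblast; and 3 nearest genes per member. The members and lists were chosen with earlier results of these data known. Alternatives were other added constants, filters and normalizations, array weights, the Gapdh ratio, a replicate block, fits of 2 groups and leaving out each array; the block limited to fibroblast and myofibroblast arrays, with and without each pair, was chosen after seeing the data.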

Additional observations from a re-analysis of the deposited data

How the results depend on the processing

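No direction of a called difference reversed. The number of receptors called moved by over 1.5 times in these cases: between adult and P10 stroma from 0 to 1 after quantile normalization and to 5 with array quality weights (with calls over all probe sets going from 385 to 423 and to 2335); against adult stroma, from 5 to 2 in keratocyte and from 5 to 3 in fibroblast culture with the Gapdh covariate (over all probe sets from 3221 to 2394 and from 3189 to 2023); between fibroblast and keratocyte culture from 0 to 1 with array quality weights (142 to 360); and between myofibroblast and keratocyte culture from 1 to 0 with 1 added and to 2 with array quality weights (620 to 573 and to 2648). The causes were not tested.

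With the replicate number as a block over all arrays, 1 receptor was called between fibroblast and keratocyte culture (Itga6, adjusted p = 0.0134). The numbers were not taken to pair these arrays, since 1 of the correlations (0.197, 0.572 and 0.0694) was under 0.1. Whether they do is not known from the labels. The replicate block on fibroblast and myofibroblast arrays, chosen after seeing the data, called 1 (Itga5) in place of 0, and 0 without each pair. The planned block over all arrays did not call Itga5 between these groups. Leaving out each array gave 0 to 0 receptors for adult against P10 stroma. Against adult stroma it gave 4 to 5 for keratocyte, 3 to 5 for fibroblast (3 without adult replicate 1) and 4 to 5 for myofibroblast culture. It gave 0 to 1 for fibroblast and for myofibroblast against keratocyte culture, and 0 to 0 for myofibroblast against fibroblast culture. Over 1380 values of single probe sets, 1328 kept their direction and side of the threshold, 28 passed it newly and 24 lost it (12 of Cd44, 9 of Itga6 and 3 of Itgb5); of 280 counts of related lists 264 stayed within 1.5 times. Quantile normalization moved the median of all probe sets from 0.12 to -0.05 for keratocyte minus adult and from -0.12 to 0.03 for adult minus P10. Precision is limited by groups of 2 or 3 arrays, and the fold of Itga5, Itga6 and the third Itgav probe set by signals near background.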
